A study of Mus musculus with 48 samples.

Results

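The positive arm of the mouse circadian clock was examined through the counts of its 3 genes, Arntl (also called Bmal1), Clock and Npas2. The rows were taken by Ensembl identifier from the gene table, with symbols from GENCODE vM21, and all 3 were found among the 55401 genes listed. RNA came from the colon of 48 male C57BL/6J mice aged 18 to 20 weeks, housed singly with a running wheel and free access to chow and sampled in the second day of darkness. Control mice carried Bmal1fl/fl with Villin wt/wt, whereas their Bmal1IEC-/- littermates carried Bmal1fl/fl with Villin CRE/wt. Both genotypes therefore held the floxed alleles, and each had 4 mice at every one of the 6 circadian times CT1, CT5, CT9, CT13, CT17 and CT21. The Villin promoter is active in epithelial cells of the gut and not in the muscle, immune, endothelial, stromal or nerve cells that the colon also holds.

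ARNTL and CLOCK are bHLH-PAS proteins that bind each other and then bind E-box DNA, where they switch on genes such as the Period and Cryptochrome repressors. NPAS2 is a close relative of CLOCK and can take its place beside ARNTL. Among the genes switched on are the nuclear receptors Rev-erb alpha (Nr1d1) and Rev-erb beta (Nr1d2), which repress genes at Rev-erb elements in competition with the activating ROR receptors. Arntl, Clock and Npas2 are themselves known targets of this second loop.

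Arntl (ENSMUSG00000055116) lies on chromosome 7 at 113207465 to 113314126 on the plus strand of GRCm38 and has 7523 exon bases. Clock (ENSMUSG00000029238) lies on chromosome 5 at 76209868 to 76304792 on the minus strand and has 13727 exon bases, and Npas2 (ENSMUSG00000026077) lies on chromosome 1 at 39193731 to 39363236 on the plus strand and has 4791. In Arntl, 33 exon bases overlap Gm45355, an antisense gene with at most 2 counts in any mouse, and no exon base of Clock or Npas2 is shared with another gene. To show what the promoters of the 3 genes hold, RefSeq windows on GRCm38.p6 from 250 bases before to 50 bases after each annotated start were searched on both strands for the Rev-erb element TAGGTNA, its core AGGTCA and the E-box CACGTG. The windows of Arntl held 2 matches to TAGGTNA, both in the first exon, whereas those of Clock and Npas2 held none. These matches are printed with their flanks, from chr7:113207494-113207523 and chr7:113207530-113207559 on the plus strand, with the match in capitals.
Arntl site 1: tggtcggaaagTAGGTTAgtggtgcgacat
Arntl site 2: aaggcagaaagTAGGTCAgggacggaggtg

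The element at site 2 also contains AGGTCA, and Clock held AGGTCA once, on the strand opposite to the gene at 76303616 to 76303621 in the window of its innermost start. None of the 3 genes held CACGTG in these windows. Among all 32851 promoter windows, TAGGTNA was in 8.29%, AGGTCA in 16.3% and CACGTG in 7.15%. The base composition of Arntl differs from that of the other members in stretches of the outermost window of each gene. These stretches lie before a RefSeq start and outside all annotated exons, and are shown here. They are chr7:113207215-113207464 on the plus strand for Arntl, chr5:76304793-76304875 on the minus strand for Clock and chr1:39194022-39194211 on the plus strand for Npas2, with no base marked.
Arntl upstream: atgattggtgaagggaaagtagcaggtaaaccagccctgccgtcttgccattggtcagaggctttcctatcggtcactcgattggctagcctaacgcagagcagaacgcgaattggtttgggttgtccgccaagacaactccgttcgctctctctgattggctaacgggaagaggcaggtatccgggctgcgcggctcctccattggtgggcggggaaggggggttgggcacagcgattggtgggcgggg
Clock upstream: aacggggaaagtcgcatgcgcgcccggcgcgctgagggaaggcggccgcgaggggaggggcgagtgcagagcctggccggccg
Npas2 outside exons: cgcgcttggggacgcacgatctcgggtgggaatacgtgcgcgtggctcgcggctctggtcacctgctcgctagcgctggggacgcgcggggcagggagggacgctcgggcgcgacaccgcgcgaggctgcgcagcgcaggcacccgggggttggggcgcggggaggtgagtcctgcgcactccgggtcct

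The G and C share of these stretches was 58.8% in Arntl, 77.1% in Clock and 75.3% in Npas2. Over whole windows it was 60.7% and 61.7% in Arntl and 72.7% in Npas2. In Clock it was 76.3% and 76.7% but 47% in the window of the innermost start, so the contrast depends on the start chosen. The RefSeq start of Npas2, at 39194272, and the stretch shown before it lie inside the gene as GENCODE vM21 draws it, between exons. A match of letters in a window describes the sequence only.

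Libraries held 3144997 to 4785844 counted reads each. The size factors behind the study's own rhythm table are those of 46 mice, without SV384 and SV385, both Bmal1IEC-/- mice at CT1. Tests were therefore run over 24 control and 22 Bmal1IEC-/- mice, with 2 Bmal1IEC-/- mice left at CT1, and were repeated over all 48. Levels are normalised counts (counts divided by DESeq2 size factors over the 48 mice), and tests are edgeR's quasi-likelihood tests over 15073 genes with Benjamini-Hochberg adjustment. Log2 differences are Bmal1IEC-/- minus control. The position of the deleted part of Arntl is not given in the sources used here and the counts sum all exons over all cells of the colon, so the Arntl count does not check the deletion. In such tissue RNA, fewer cells of a type and less RNA per cell cannot be told apart.

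Arntl was the most strongly cycling of the 3 genes in control colon. Its normalised counts at CT1 were 244, 256, 283 and 247. At CT5 they were 103, 127, 121 and 143, and at CT9 they were 22.4, 15.8, 31.6 and 34.9. Every mouse at CT9 was thus below every mouse at CT5, and every mouse at CT5 was below every mouse at CT1. The counts were 40.2, 36.3, 25.9 and 17.2 at CT13, 88.7, 112, 71.6 and 121 at CT17 and 234, 229, 256 and 280.4 at CT21. Its mean was highest at CT1, 258 ± 17.9 (SD, n = 4), and lowest at CT9, 26.2 ± 8.74 (SD, n = 4), a ratio of 9.84 between the highest and lowest means. In the order CT1, CT21, CT5, CT17, CT13 and CT9, only CT21 against CT5 and CT17 against CT13 were neighbours whose mice did not overlap.

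In Bmal1IEC-/- colon the deleted gene kept a middle level at every time. Arntl counts were 121, 119, 117 and 132 at CT5, 103, 84.9, 105 and 157 at CT9 and 107, 123, 129.8 and 102 at CT13. They were 120.5, 131, 119 and 105 at CT17 and 139.97, 151, 133 and 127 at CT21. At CT1 the mice kept in the tests had 171 and 180.4, and SV384 and SV385 had 105 and 97.2. Its lowest group mean was 113 ± 30.8 (SD, n = 4), at CT9, and its highest 176 ± 6.74 (SD, n = 2), at CT1, a ratio of 1.56, or 1.23 with SV384 and SV385. The mean of the 6 group means was 130.9 in control and 130.4 in Bmal1IEC-/- mice, or 17.4 and 17.3 normalised counts per kb of exon.

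**Figure D1:**
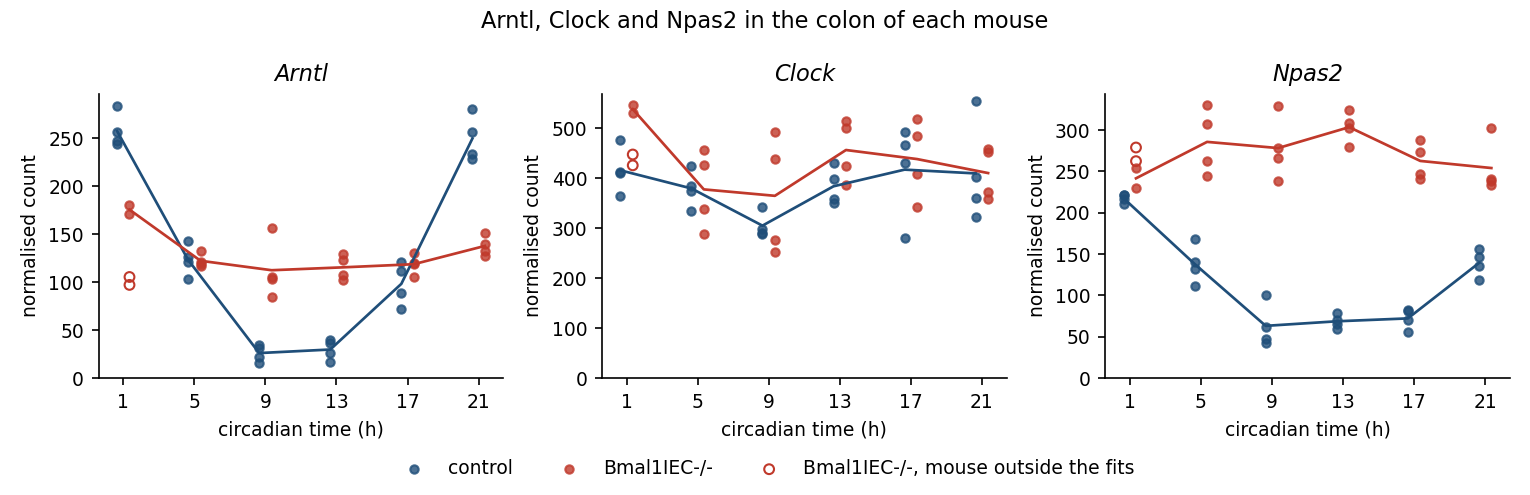
Normalised counts (linear axis) of Arntl, Clock and Npas2 in each mouse against circadian time in hours, with the mean of the mice in the tests as a line, for control and Bmal1IEC-/- mice, where open points are SV384 and SV385. Control Arntl spans group means of 26.2 to 258 while Bmal1IEC-/- Arntl stays between 112.5 and 176, and Npas2 of every Bmal1IEC-/- mouse lies above that of every control mouse.

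The genotype difference of Arntl therefore turned with time. Arntl was higher in Bmal1IEC-/- mice at CT9, by 2.07 ± 0.19 (SE) on the log2 scale (adjusted p = 1.67e-10), and at CT13, by 1.93 ± 0.19 (SE) (adjusted p = 4.29e-10). It was lower at CT21, where the difference was -0.86 ± 0.15 (SE) (adjusted p = 0.000518). At CT5, with -0.02 ± 0.15 (SE) (adjusted p = 0.999), and at CT17, with 0.28 ± 0.16 (SE) (adjusted p = 0.736), the difference did not pass the test, and the mice of the genotypes overlapped. At CT1 the difference was -0.56 ± 0.18 (SE) with adjusted p = 0.0966. Both kept Bmal1IEC-/- mice were below all control mice, but at CT1 the genotypes did not overlap for 30.5% of all genes. Over all 48 mice the CT1 difference was -0.89 (adjusted p = 0.000289). The interaction of genotype with time passed the test (adjusted p = 7.16e-13), while the difference over all times, 0.32 ± 0.17 (SE), did not (adjusted p = 0.251).

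Npas2, the alternative partner of ARNTL, cycled in control colon and stood high at all times in Bmal1IEC-/- colon. Control counts were 211, 216, 222 and 221 at CT1, 111, 141, 169 and 132 at CT5 and 62.2, 43.1, 47.4 and 100.3 at CT9. They were 79.4, 59.7, 70.3 and 65.7 at CT13, 82.4, 81.1, 69.9 and 55.7 at CT17 and 146, 119, 135 and 156 at CT21. The mean at CT1, 218 ± 4.99 (SD, n = 4), was 3.44 times that at CT9, 63.3 ± 26.0 (SD, n = 4). Ordered by mean, CT1, CT21, CT5, CT17, CT13 and CT9, the neighbours CT1 and CT21 and the neighbours CT5 and CT17 did not overlap, and the others did.

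In Bmal1IEC-/- mice Npas2 counts were 329.9, 262, 244 and 307 at CT5, 239, 266, 329.7 and 278 at CT9 and 279, 324, 308 and 303 at CT13. They were 247, 274, 288 and 241 at CT17 and 234, 239, 241 and 303 at CT21. At CT1 they were 229.6 and 254, with 262 and 279 in SV384 and SV385. Means lay between 242 ± 17.1 (SD, n = 2) at CT1 and 304 ± 18.7 (SD, n = 4) at CT13, a ratio of 1.26, and the mice of neighbours in this order overlapped throughout. The lowest Bmal1IEC-/- mouse of any time had 229.6 and the highest control mouse of any time had 222. At each of the 6 times the genotypes were thus fully apart, although at CT1, with n = 2, so were 30.5% of all genes. With the times pooled, the ranges of the genotypes did not overlap for 8 of the 15073 genes (0.0531%), Npas2 among them.

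Npas2 was 2.61-fold higher in Bmal1IEC-/- mice over all times, a log2 difference of 1.39 ± 0.12 (SE) (adjusted p = 7.73e-13). The difference was widest at CT13, 2.13 ± 0.15 (SE) (adjusted p = 1.10e-13), and CT9, 2.11 ± 0.16 (SE) (adjusted p = 2.72e-13), where the control means were lowest. It was 1.85 ± 0.15 (SE) at CT17 (adjusted p = 7.42e-12). At CT5 it was 1.04 ± 0.14 (SE) (adjusted p = 5.93e-06) and at CT21 0.87 ± 0.14 (SE) (adjusted p = 0.000289). At CT1, where control Npas2 was at its highest, the difference of 0.14 ± 0.17 (SE) did not pass the test (adjusted p = 0.728). The interaction of genotype with time passed it (adjusted p = 2.82e-08). The interaction of genotype with day (CT1, CT5 and CT9) or night did not, for Npas2 (0.57 ± 0.26 (SE), adjusted p = 0.531) or for Arntl (0.04 ± 0.49 (SE), adjusted p = 0.99). That model has no term for time within day or night, so changes within them count as spread and cannot be shown by it. The Arntl difference went from -0.56 at CT1 to 2.07 at CT9, and from 1.93 at CT13 to -0.86 at CT21.

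Clock, the usual partner of ARNTL, had a smaller ratio between its highest and lowest means than Arntl or Npas2 in control mice. Control counts were 412, 411, 477 and 365 at CT1, 384, 375, 335 and 425 at CT5 and 289, 291, 343 and 298 at CT9. They were 350.4, 429.7, 398 and 358 at CT13, 467, 429.9, 281 and 492 at CT17 and 323, 360.3, 555 and 402 at CT21. The highest mean, 417 ± 94.7 (SD, n = 4) at CT17, was 1.37 times the lowest, 305 ± 25.3 (SD, n = 4) at CT9, and the mice of all neighbours in the order of means overlapped. The spread at CT17 and CT21 came with SV438, at 281 against 429.85 to 492 in the other CT17 mice, and with a mouse of 555 at CT21.

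In Bmal1IEC-/- mice Clock counts were 289, 339, 426 and 457 at CT5, 439, 277, 252 and 492 at CT9 and 386, 514, 425 and 501 at CT13. They were 408, 484, 343 and 518 at CT17 and 358, 452, 459 and 373 at CT21. At CT1 they were 530.4 and 546, with 448 and 426 in SV384 and SV385. The Clock mean at CT1, 538 ± 11.2 (SD, n = 2), was 1.475 times that at CT9, 365 ± 119 (SD, n = 4), or 1.336 with SV384 and SV385, and of neighbours in the order CT1, CT13, CT17, CT21, CT5 and CT9 only CT1 and CT13 did not overlap. The genotypes overlapped from CT5 to CT21, and at CT1 they were apart in the 46 mice but not in all 48. The Clock difference was 0.14 ± 0.07 (SE) over all times (95% interval 0.0037 to 0.278, adjusted p = 0.213). By time it was widest at CT1, 0.36 ± 0.20 (SE) (95% interval -0.03 to 0.76, adjusted p = 0.375), and no time passed the test. The interaction with time did not pass either (adjusted p = 0.928).

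Set against all genes tested, the members stood as follows. Over all times 10.5% of genes were called, and 1.39% were called with a fold over 1.5, as Npas2 was. At CT9, with 1.78% of genes called, and at CT13, with 4.43%, Arntl and Npas2 were both called as higher. At CT21, with 0.378% of genes called, Arntl was called as lower and Npas2 as higher. At CT5, with 0.445%, and CT17, with 1.05%, Npas2 was called alone among the members, and at CT1, with 1.21%, none was. The interaction with time was called for 0.504% of genes, Arntl and Npas2 among them, and that with period for 0.0531%, none of the members. Genotypes that did not overlap were found at CT1 in 30.5% of genes, a group of 2 mice against 4, and in 3.99% at CT5, 4.19% at CT9, 12.7% at CT13, 4.71% at CT17 and 4.54% at CT21. Npas2 was apart at all 6 times, Arntl at CT1, CT9, CT13 and CT21, and Clock at CT1.

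**Figure D2:**
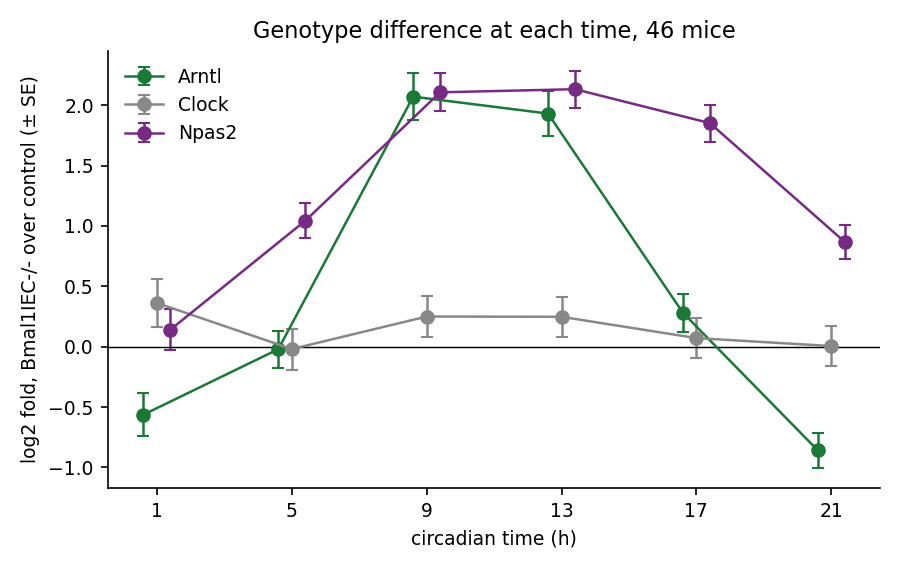
Log2 difference (Bmal1IEC-/- minus control, edgeR) of Arntl, Clock and Npas2 at each circadian time in hours, with bars of 1 SE and a line at 0. Arntl crosses from -0.56 at CT1 through 2.07 at CT9 back to -0.86 at CT21, Npas2 rises to 2.13 at CT13 and Clock stays between -0.02 and 0.36.

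The RNA of the 2 partner genes was compared per length within each mouse, as the ratio of Npas2 to Clock in normalised counts per kb of exon. The length is that of all annotated exons of a gene, the transcripts in use in the colon were not measured, and the position of the ratio against 1 depends on this length. In control mice this ratio was 1.51 ± 0.167 at CT1, 1.06 ± 0.275 at CT5 and 0.60 ± 0.261 at CT9 (SD, n = 4 each). It was 0.52 ± 0.103 at CT13, 0.521 ± 0.16 at CT17 and 1.02 ± 0.255 at CT21. On this scale Npas2 RNA was thus above Clock RNA in every control mouse at CT1 and below it in every control mouse from CT9 to CT17. In Bmal1IEC-/- mice the ratio was 1.29 ± 0.0643 at CT1 (n = 2), 2.26 ± 0.712 at CT5 and 2.42 ± 1.04 at CT9. It was 1.92 ± 0.178 at CT13, 1.77 ± 0.453 at CT17 and 1.80 ± 0.387 at CT21 (n = 4 each). No Bmal1IEC-/- mouse of the 22 had a ratio under 1.24, and at CT5, CT9, CT13, CT17 and CT21 every Bmal1IEC-/- mouse was above every control mouse of its time. At CT1 the ratio was 1.33 to 1.74 in control and 1.24 to 1.33 in Bmal1IEC-/- mice, with 1.68 and 1.88 in SV384 and SV385. The mean of the 6 group means in normalised counts per kb was 24.3 for Npas2 and 28.1 for Clock in control mice, and 56.6 and 31.4 in Bmal1IEC-/- mice. The Arntl level in control mice was 17.4 per kb as the mean over the 6 times, below the other members. At CT21, however, control Arntl was at 33.2 per kb, against 29.9 for Clock and 29.1 for Npas2, and at CT1 it was at 34.2, between Clock at 30.3 and Npas2 at 45.4.

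**Figure D3:**
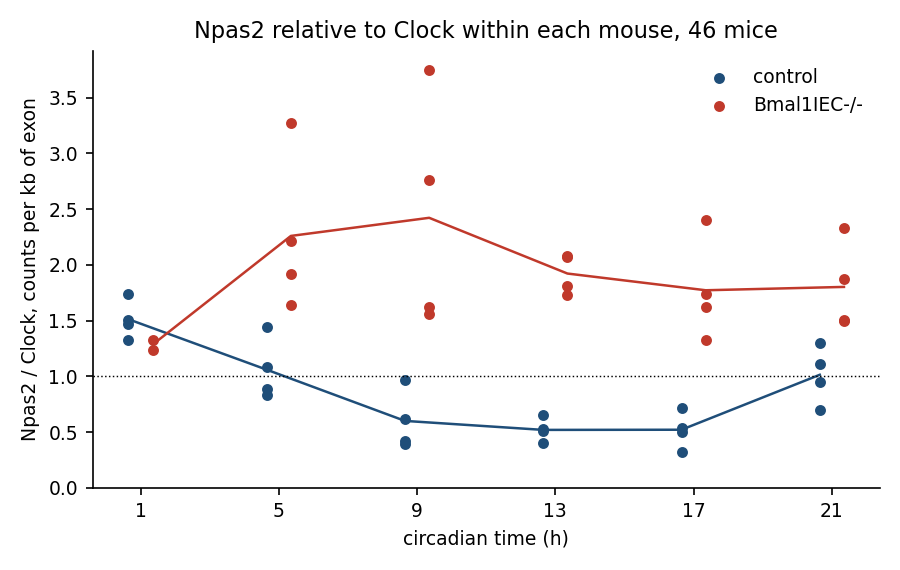
Ratio of Npas2 to Clock, each in normalised counts per kb of exon, in each mouse against circadian time in hours, with group means as lines and a dotted line at 1, for the 24 control and 22 Bmal1IEC-/- mice of the tests. Control means fall from 1.51 at CT1 to 0.52 at CT13, and Bmal1IEC-/- means lie between 1.29 and 2.42.

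Rhythms were then tested in each genotype with a 24-h cosine in edgeR. In control mice, where 48.6% of genes passed, Arntl had a log2 amplitude of 1.75 with a peak at CT23.3 (adjusted p = 1.10e-21) and an 11.3-fold change from trough to peak. Npas2 had an amplitude of 0.91 with a peak at CT0.825 (adjusted p = 1.79e-13), a 3.52-fold change. Clock, with an amplitude of 0.17, did not pass (adjusted p = 0.125). In Bmal1IEC-/- mice 26.1% of genes passed, and none of the members did. The amplitudes there were 0.23 for Arntl (adjusted p = 0.0643), 0.13 for Npas2 (adjusted p = 0.286) and 0.11 for Clock (adjusted p = 0.476). The difference of the cosine between genotypes passed for Arntl (adjusted p = 4.07e-13) and Npas2 (adjusted p = 1.21e-09) but not for Clock (adjusted p = 0.956). It passed for 0.935% of all genes.

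The rank test JTK_cycle has an exact p, adjusted over phases but not over genes, whereas the cosine p was adjusted over genes. At these unlike thresholds it differed from the cosine for 1 member, Arntl in Bmal1IEC-/- mice. The cosine p of Arntl there was 0.0187 before adjustment over genes (edgeR). In control mice JTK_cycle called 24.1% of 32471 genes, including Arntl (exact p = 6.55e-08) and Npas2 (exact p = 3.03e-06), both with a phase of CT0. It did not call Clock (exact p = 0.0921). In Bmal1IEC-/- mice it called 14.2%. Arntl was among them, with an exact p of 0.00568 and a phase of CT0, but had an exact p of 0.212 once SV384 and SV385 were included. Npas2 had an exact p of 0.067 and Clock an exact p of 1. The residual Arntl rhythm in Bmal1IEC-/- mice therefore rests on which CT1 mice were used. On the linear scale, the Arntl cosine had an amplitude of 131.9 ± 6.59 (SE) around a mean level of 132 ± 4.66 in control mice, which was 99.8% of that level. In Bmal1IEC-/- mice the amplitude was 21.5 ± 5.93 around 129 ± 4.03, or 16.6%, with the peak at CT23.85 ± 0.971. For Npas2 the amplitude was 74.0 ± 7.47 around 118 ± 5.28 in control mice and 23.5 ± 9.48 around 274.5 ± 6.59 in Bmal1IEC-/- mice, with fitted peaks at CT0.844 ± 0.386 and CT10.63 ± 1.49. Clock had 47.1 ± 18.5 around 389 ± 13.1 and 31.8 ± 25.2 around 426 ± 18.7.

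The repressors of the second loop were lower in Bmal1IEC-/- mice and still cycled there. Nr1d1 counts at CT9 were 704, 555, 543 and 406 in control and 146, 201.25, 245 and 59.2 in Bmal1IEC-/- mice, without overlap. Over all times Nr1d1 fell by 1.49 on the log2 scale (SE 0.12, adjusted p = 2.15e-13 with edgeR) and Nr1d2 fell by 1.74 (SE 0.08, adjusted p = 1.99e-23). Both passed the cosine in Bmal1IEC-/- mice (adjusted p = 4.70e-14 for Nr1d1 and 8.67e-11 for Nr1d2), and the difference of the cosine did not pass for Nr1d1 (adjusted p = 0.983) or Nr1d2 (adjusted p = 0.901). The linear amplitude of Nr1d1 was 124% of its mean level in control and 117% in Bmal1IEC-/- mice, and that of Nr1d2 was 76.5% and 74.0%. Npas2 and Arntl, in contrast, went from 62.9% to 8.56% and from 99.8% to 16.6%.

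**Figure D4:**
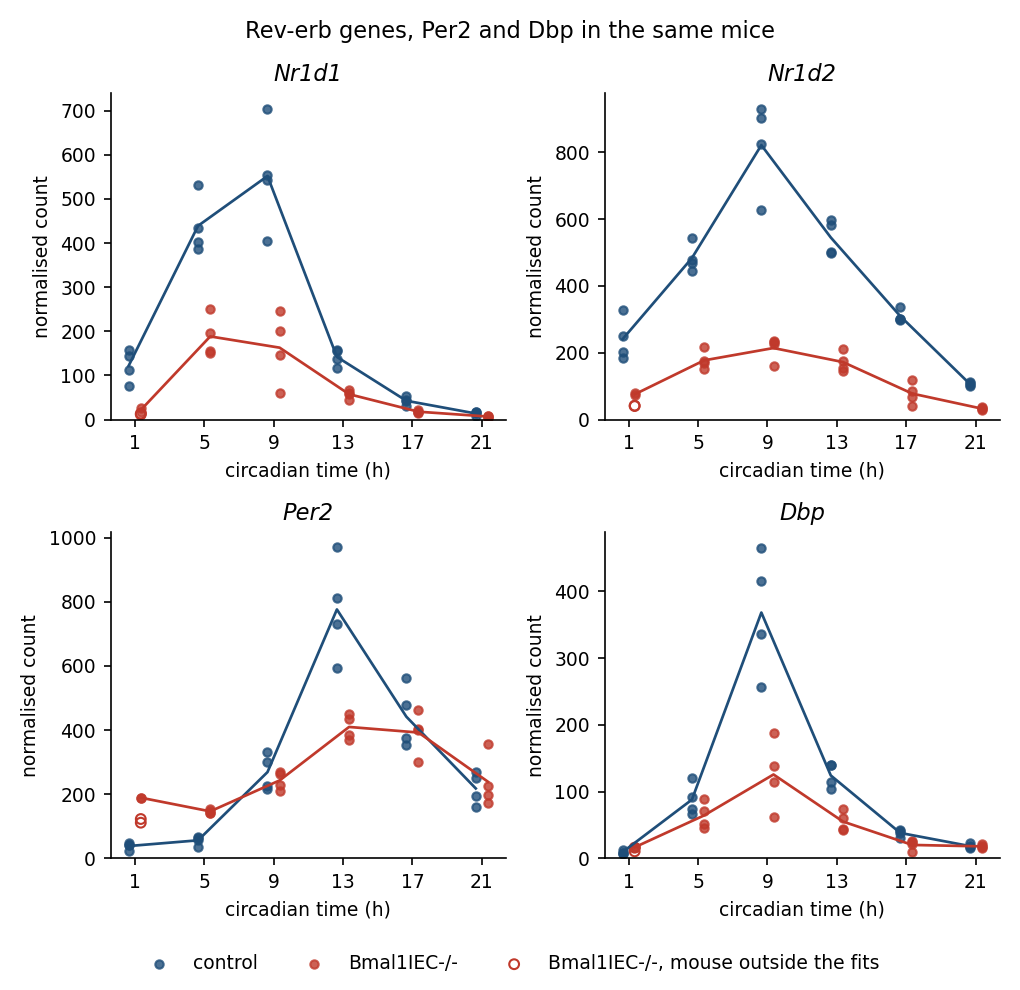
Normalised counts (linear axis) of Nr1d1, Nr1d2, Per2 and Dbp in each mouse against circadian time in hours, with the mean of the mice in the tests as a line, for control and Bmal1IEC-/- mice (open points are SV384 and SV385). Nr1d1 and Nr1d2 keep a daytime peak at a lower level in Bmal1IEC-/- mice, the fitted amplitude of Per2 is 143 against 336 in control mice, and that of Dbp is 49.2 against 147.

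Of 6 genes for Rev-erb and ROR receptors and their corepressors, 5 were tested, of which 3 fell over all times and the others were not called (median log2 difference -0.22, against 0.00 for all genes, of which 10.5% were called). Besides the 2 Rev-erb genes, Rora, which encodes the activating receptor ROR alpha, fell by 0.22 (adjusted p = 0.0073 with edgeR). Ncor1 and Hdac3, which encode corepressors, were not called. Of 5 other genes known to hold Rev-erb elements, 4 were tested, of which 2 rose over all times and the others were not called (median 0.56, which was 0.0879 in DESeq2 and 0.0914 with no filter on low counts, where the same number rose). These were Cry1, which encodes a repressor of the heterodimer (1.27 ± 0.13, adjusted p = 3.95e-10), and Nfil3, which encodes a repressor of output genes (1.04 ± 0.15, adjusted p = 7.08e-07). As for Npas2, the difference of the cosine passed for both, and Nfil3 was 2.80 higher on the log2 scale at CT9. Nr1d1, Nr1d2 and Cry1 are each in more than 1 list.

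All 15 E-box target genes of the heterodimer were tested. Over all times, where 10.5% of all genes were called, 2 rose and 9 fell (median -0.43). The 2 that rose were Cry1 and Cry2, and those that fell most included Nr1d2 and Nr1d1. With all 48 mice 2 rose and 8 fell (median -0.33), and with DESeq2 2 rose and 7 fell (median -0.359). By time the list was not of one direction. At CT1, with 1.21% of all genes called, 4 rose and 2 fell (median 0.61), among them Per2, a repressor of the heterodimer, which was higher by 2.29 ± 0.27 (adjusted p = 5.72e-07 with edgeR). At CT9, with 1.78% of all genes called, 1 rose and 6 fell (median -0.73), and at CT13, with 4.43%, 1 rose and 10 fell (median -0.96), with Per2 lower by 0.92 at CT13 (log2 difference -0.92, adjusted p = 0.000406). CT13, where Arntl and Npas2 were higher, was thus the time with the most of these targets called as lower. There 9 fell with all 48 mice or with DESeq2, and 11 with no filter. All 15 had a cosine that passed in control mice, as 48.6% of all genes did, and 11 in Bmal1IEC-/- mice, as 26.1% did. The difference of the cosine passed for 7, against 0.935% of all genes. JTK_cycle called 15 in control mice (24.1% of all genes) and 12 in Bmal1IEC-/- mice (14.2%). Per2 had a linear amplitude of 111% of its mean level in control and 53.1% in Bmal1IEC-/- mice. In the promoter windows, 5 of the 12 targets with a window held CACGTG (Bhlhe41, Ciart, Cry1, Per1 and Tef), against 8.09% of all 27025 genes with a window.

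Of 18 genes for proteins known to act on the heterodimer, 17 were tested, of which 3 fell over all times and the others were not called (median -0.03). This count is read against the 10.5% of all genes called, as is that of the bHLH-PAS family, and such small counts near that share are no result about these lists. With all 48 mice, or with DESeq2 size factors in edgeR, 1 also rose. Cipc, which encodes a protein that binds CLOCK and inhibits it, fell by 0.50 (SE 0.08, adjusted p = 3.44e-06 with edgeR), with -1.09 at CT9, and its cosine differed between genotypes (adjusted p = 0.00335). Nampt, the enzyme that feeds NAD+ to the deacetylase SIRT1, fell by 0.18 (adjusted p = 0.00109) and Csnk1e, a kinase of the Period proteins, fell by 0.20 (adjusted p = 0.0359). JTK_cycle called 11 of the 18 in control mice (24.1% of all genes) and 11 in Bmal1IEC-/- mice (14.2%). The called genes were not all the same, since for example Nampt was called only in control and Wdr5 only in Bmal1IEC-/- mice. Among 12 tested genes of the wider bHLH-PAS family, Hif1a, the oxygen-regulated subunit, fell by 0.29 (adjusted p = 0.000681) and Epas1, its relative, fell by 0.12 (adjusted p = 0.0269). No gene of this family other than the members passed the interaction with time or the difference of the cosine. Arntl2, the paralog of Arntl, had a difference of -0.13 ± 0.14 (SE) over all times (adjusted p = 0.652).

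As a description of similarity, genes were ranked by the Pearson r of their 12 group means of log2(CPM + 1) with each member, over 15072 other genes. These 12 means share their libraries and the genotype shift, so no p is given. Nearest to Arntl were Cdc42ep3 (r = 0.952), Hacd2 (0.913), Tspan6 (0.911) and Asap2 (0.890), with Alpk1 (-0.935) and Rnf186 (-0.927) most opposite. Nearest to Npas2 were Cldn8, a tight junction claudin (0.967), Ddc, the aromatic amino acid decarboxylase (0.953), Prkg2, a cGMP-dependent kinase (0.949), and Grhl1, an epithelial transcription factor (0.934). Smim24 (-0.97) and D930020B18Rik (-0.957) ran most opposite to it. Nearest to Clock were Cbl, a ubiquitin ligase (0.960), Papola, a poly(A) polymerase (0.959), Uhmk1 (0.944) and Cfdp1 (0.931), with Cbx7 (-0.938) and Csf1r, a receptor of macrophages (-0.914), most opposite. The members were not each other's nearest genes, since Npas2 was at rank 549 for Arntl (0.666) and Clock at rank 1135 (0.572).

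Within groups, the deviations of each mouse from its group mean of log2(CPM + 1) were compared over 46 mice, for 6 pairs. Clock and Nr1d1 deviated in opposite directions (Pearson r = -0.598, permutation p = 0.00087, adjusted p = 0.00522, and Spearman rho = -0.482, permutation p = 0.00498, adjusted p = 0.0299), with r = -0.51 in control and -0.656 in Bmal1IEC-/- mice. Without SV438 and SV418, the mice farthest from the median in Clock, r was -0.52. Arntl and Clock deviated together by Pearson's measure (r = 0.406, permutation p = 0.00723, adjusted p = 0.0217) but not by Spearman's (rho = 0.367, permutation p = 0.0201, adjusted p = 0.0604), with r = 0.432 in control and 0.44 in Bmal1IEC-/- mice and 0.436 without SV424 and SV412. Arntl and Nr1d1 had r = -0.362 (adjusted p = 0.0889), Arntl and Npas2 0.301 (adjusted p = 0.269), Clock and Npas2 -0.232 (adjusted p = 0.186) and Npas2 and Nr1d1 0.151 (adjusted p = 0.357), from the same permutations, and none of these passed. The Clock deviation also moved with the summed markers of epithelium (r = -0.57, permutation p = 0.00158, adjusted p = 0.00948, and rho = -0.552, permutation p = 0.00239, adjusted p = 0.0143, r = -0.545 without the extreme pair) and, by Pearson's measure only, of smooth muscle (r = -0.539, permutation p = 0.00624, adjusted p = 0.0187, and rho = -0.393, permutation p = 0.0318, adjusted p = 0.0953, r = -0.44 without the extreme pair). With both marker sums as covariates, an alternative added after seeing the data, r was -0.37 for Clock and Nr1d1 and 0.24 for Arntl and Clock (adjusted p = 0.12 for each by permutation), and neither passed.

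Markers of the cell types in the colon were read beside these results. The 8 epithelial markers summed to 26985 to 35437 CPM in control and 23905 to 37779 CPM in Bmal1IEC-/- mice. All marker sums given here are CPM with TMM library sizes and are not on the scale of the normalised counts above. Of them 1 rose and 2 fell over all times, against 10.5% of all genes called. Cdh1, the epithelial cadherin, rose by 0.12 (adjusted p = 0.0361 with edgeR), Slc26a3, the chloride exchanger of surface colonocytes, fell by 0.77 (adjusted p = 1.08e-09), and Epcam, a surface protein of epithelial cells, fell by 0.10 (adjusted p = 0.0076). The balance was not stable, with 2 up and 1 down over all 48 mice (median 0.0188, against -0.04 in the 46) and 2 up and 2 down with DESeq2. The 5 smooth muscle markers summed to 2919 to 4455 and 2647 to 4294, and 2 of them fell. This count was 1 with all 48 mice and 3 with DESeq2 or with no filter. Markers of fibroblasts (5, 1 fell), enteric neurons and glia (6, 1 fell), immune cells (4 tested, 1 fell) and endothelium (3, 2 fell) summed to 812 to 1393, 42.5 to 66.7, 172 to 240.4 and 80.3 to 142 in control mice and to 749 to 1469, 33.4 to 56.5, 138 to 225 and 81.0 to 119 in Bmal1IEC-/- mice. Of so few genes, 1 in each of the first 3 lists is close to the 10.5% of all genes called, and the calls of neurons and glia and of immune cells were lost in DESeq2. None of these markers was at 0 in all mice. Their part in the genotype differences of Arntl, Clock and Npas2 was not tested.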

How the data were processed

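Per the labels and the study's methods, the authors made TruSeq Stranded mRNA libraries, trimmed reads (Trimmomatic 0.39), aligned them to mm10 with STAR 2.7.5c and counted exon reads of mapping quality 4 or more with featureCounts 1.4.6. The deposited values are these counts, whole numbers per gene and mouse, not normalized. Here, genotype, time, interaction and cosine models were fitted with edgeR 4.0.16 (TMM, filterByExpr, quasi-likelihood F test, Benjamini-Hochberg adjustment, threshold 0.05) in R 4.3.3. JTK_cycle (24 h, phases in steps of 2 h) and linear cosine fits ran in Python 3.11.15 on counts divided by size factors of the DESeq2 method. The 100000 permutations ran there on deviations of log2(CPM + 1), with TMM library sizes, from the group means. Normalised counts divide out library size only, and counts below 3 are at the floor of counting error. Mice of a group differed by more than counting error (chi-square per gene 1.93 to 14.9 over 72 pairs). The labels do not give litters or batches. Named genes are the 3 members, Nr1d1, Nr1d2, Rora, Per2, Dbp and Arntl2, up to 3 genes of smallest adjusted p per list and the most similar genes by r, and others named were picked after their values were seen. The members and lists were chosen with earlier results of these data known, and some genes of the lists are not reported here. The tests were checked on simulated counts, where the cosine tests missed most rhythms of small amplitude. A cosine test that did not pass, as for Clock, therefore does not show that a rhythm is absent. Alternatives were all 48 mice, DESeq2 1.42.0, no filter and leaving out each mouse.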

Additional observations from a re-analysis of the deposited data

Results flagged for a closer look

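Npas2 in the Bmal1IEC-/- mouse SV471 at CT21 was 302.71 normalised counts, apart from the 3 other mice of its group at 234 to 241. It was the only such mouse among the 36 groups of 4 tested for the members, where chance flags about 1 group in 20. Every mouse of that group was above every control mouse with or without it.

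The genotype difference of Arntl itself differed between circadian times (edgeR interaction, adjusted p = 7.157e-13), as did that of Npas2 (adjusted p = 2.817e-08). The 24-h cosine differed between genotypes for Arntl (edgeR, adjusted p = 4.074e-13) and for Npas2 (adjusted p = 1.212e-09).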

How the results depend on the processing

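Over 68 results, 223 of 244 alternative values and 3095 of 3128 values without a mouse kept their side of the threshold. For counts this meant staying within 1.5 times, and for linear amplitudes within the SE of the main fit. A change of direction was counted as reversed only where it or the main value passed, and 0 were reversed. Direction could change where neither passed, as for Clock at CT21 (-0.09143 to 0.185 without single mice). The values not kept follow, and their cause was not tested. Genes called at CT1 (183) were 3616 with all 48 mice, 372 with DESeq2 and 621 with no filter. With no filter they were 224 at CT5 (67), 456 at CT9 (269), 349 at CT17 (159) and 302 at CT21 (57). The interaction with time (76) gave 582 with 48 mice, 195 with DESeq2 and 803 with no filter. That with period (8) gave 20 with 48 mice and 18 with DESeq2, and the difference of the cosine (141) gave 281 with 48 mice. The Arntl difference at CT1 (-0.56) passed with 48 mice (-0.8881, adjusted p = 0.000289), DESeq2 (-0.5531, adjusted p = 0.0464) and no filter (-0.5277, adjusted p = 0.0471). The Arntl cosine in Bmal1IEC-/- mice passed with DESeq2 (amplitude 0.2345, adjusted p = 0.0437). With 48 mice its JTK_cycle p was 0.2117 and its linear amplitude 13.96. With marker sums as covariates, an alternative chosen after seeing the data, r was 0.2396 for Arntl and Clock and -0.3716 for Clock and Nr1d1.

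Without single mice, genes called ran from 12 to 312 at CT1 (changed without SV454, SV455, SV468, SV469, SV479, SV480 or SV410), from 37 to 72 at CT5 (SV447), from 401 to 745 at CT13 (SV396, SV397 or SV424), from 51 to 129 for the interaction with time (SV469) and from 7 to 16 for that with period (SV469 or SV434). The Arntl cosine amplitude in Bmal1IEC-/- mice ran from 0.1955 to 0.2729 and passed without SV447, SV412, SV424, SV453, SV418, SV449 or SV471. The JTK_cycle p of Clock in control mice ran from 0.01933 to 0.2579 and passed without SV438, SV433 or SV434. That of Npas2 in Bmal1IEC-/- mice ran from 0.02457 to 0.1928 and passed without SV439, SV478, SV400, SV481 or SV471. The r of Arntl and Clock ran from 0.3154 to 0.4639 and did not pass without SV438, SV402 or SV418, and that of Arntl and Nr1d1 ran from -0.4229 to -0.1816 and passed without SV396. No paired analysis was possible because the labels give each mouse its own number and the groups share none. The 2 Bmal1IEC-/- mice at CT1 limit every result at that time.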
